A study of Mus musculus with 12 samples.

Results

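The patrolling monocytes described here were 204 of the 128912 cells that passed the gene and mitochondrial limits in a scRNA-Seq data set of tumor-infiltrating leukocytes, a share of 0.158% (exact 95% binomial interval 0.137 to 0.181, counting error only). A cell was taken as a patrolling monocyte when it held at least 2 unique molecular identifiers (UMIs) of Treml4 and Ace together, at least 1 UMI of Csf1r, none of Cd3d, Cd3e, Cd3g and Siglech, and under 5 UMIs per 10000 of Ly6c2 and of C1qa, C1qb and C1qc together. The cells were thus chosen by measured values of these genes, so the levels of these genes are descriptions here and support nothing. The cells came from subcutaneous MC38 tumors, grown in C57BL/6 mice from a mouse colon carcinoma cell line, and CD45+ leukocytes were enriched with magnetic beads on day 17. The 4 groups of 3 mice received vehicle for 7 days, the EZH2 inhibitor PF-06821497 (EZH2i) at 100 mg/kg daily for 7 days from day 10, vehicle for 16 days, or EZH2i at the same dose for 16 days from day 1. EZH2i blocks the enzyme that places methyl groups on lysine 27 of histone H3. The deposited matrix pools 12 libraries under numbers that no label or file header ties to a mouse or a group. The study's methods give a cell total for each group, which was not used to place libraries, because groups were taken from the labels alone. All 12 libraries were therefore handled together as 1 pooled sample, EZH2i was not compared with vehicle, and no p-value is given anywhere below.

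Patrolling monocytes, also called non-classical monocytes, are the blood monocytes that crawl along the inner surface of small vessels and clear cellular debris. In the mouse they carry little Ly6C, much CX3CR1 and CD43 (the product of Spn), and depend on the nuclear receptor Nr4a1, and most arise from Ly6C-high monocytes. Ly6C-high monocytes enter inflamed tissue and tumors in large numbers and can become macrophages there. These 2 populations were therefore the comparators: 1306 Ly6c2-high monocytes (Csf1r present, at least 10 UMIs of Ly6c2 per 10000) and 71101 C1q-high macrophages (Csf1r present, at least 20 UMIs of the C1q genes per 10000), each with at most 1 UMI of Treml4 and Ace.

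Libraries differed in depth and in where the patrolling monocytes were found. The median UMI count of all kept cells ran from 2291 in library 6 to 15081 in library 12. Library 8 alone held 71 of the 204 patrolling monocytes (34.8%) and 58.5% of their 1643421 UMIs, with a median of 13156 UMIs per patrolling monocyte against 3627, 3689.5 and 4222 in libraries 1, 2 and 7. Where leaving library 8 out moved a count of calls below by over 1.5 times, that count is given too. UMIs of 4 Y-linked genes were present in 29 of the 69 patrolling monocytes of libraries 1 to 6 and in 0 of the 135 of libraries 7 to 12, while Xist was present in 124 of the latter and 0 of the former. The study's methods describe female mice, which the Y-linked UMIs go against. Cell barcodes were shared between libraries for 4547 barcodes (3.23%), among them 9 patrolling monocytes, and no barcode was shared by a pair of patrolling monocytes.

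Patrolling monocytes were found in 11 of the 12 libraries. Libraries 1 to 6 held 26, 30, 9, 2, 2 and 0 of them, and libraries 7 to 12 held 24, 71, 10, 8, 15 and 7. As a share of kept cells, library 8 stood at 1.15% (0.903 to 1.45), and its interval did not overlap that of any other library. The other libraries lay between 0 and 0.310% (library 11), and the median over all 12 was 0.203%. Library 6 held 0 of 37413 cells, which allows a share of up to 0.00802% by 3 counts of the total (exact upper limit 0.00986%). Without library 8 the pooled share was 0.108%. Depth bears on these shares, because 2 UMIs of Treml4 and Ace are easier to reach in a deep cell. When cells of at least 3000 UMIs were thinned to 3000 UMIs, 73 of 85455 cells (0.0854%, 0.0670 to 0.107) met the rule. Library 8 was then still the highest at 0.293% (0.168 to 0.475), but its interval overlapped those of all other libraries except 4, 5 and 6, among them library 1 (0.127%, 0.0635 to 0.227), library 2 (0.160%, 0.0894 to 0.263) and library 7 (0.152%, 0.0728 to 0.279). For every 100 Ly6c2-high monocytes the libraries held between 0 and 36.4 patrolling monocytes, with a median of 12.4. In a tissue digest, fewer patrolling monocytes and fewer UMIs of the genes that define them cannot be told apart.

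**Figure D1:**
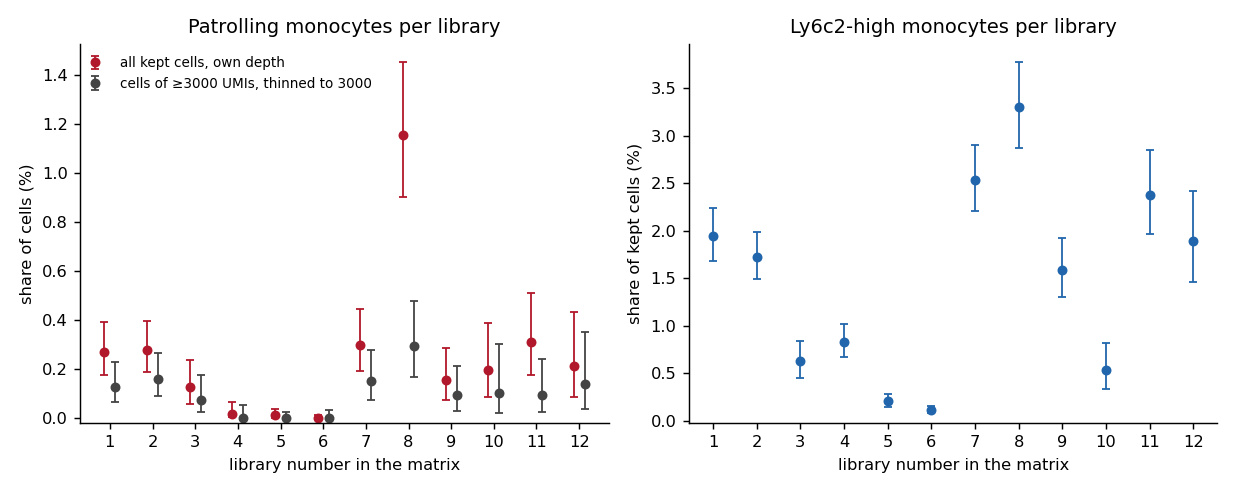
Share of kept cells, in percent, that were patrolling monocytes (left, at each cell's own depth and after thinning to 3000 UMIs) and Ly6c2-high monocytes (right) in the 12 libraries, with exact 95% binomial intervals. Library 8 stands highest for patrolling monocytes at 1.15% and drops to 0.293% after thinning, where its interval overlaps those of all other libraries except 4, 5 and 6.

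Within the rule, Treml4, a receptor of the Trem family on myeloid cells (GRCm38 chr17:48264295-48275360, plus strand), was detected in 154 of the 204 cells. Ace, angiotensin-converting enzyme (chr11:105967945-105989964, plus strand), was detected in 167, and 117 cells held both transcripts. The summed count of both had a median of 3 UMIs and a highest value of 15, and 83 cells stood exactly at the limit of 2. T cells were taken as cells with at least 2 UMIs of Cd3d, Cd3e and Cd3g together and none of Csf1r. They should lack Treml4 and Ace and gave a level of free RNA, which leaves out T cells with a stray Csf1r UMI. Of 6951 T cells (median depth 2884 UMIs, against 6124.5 in patrolling monocytes), 0.561% held a UMI of Treml4 or Ace, and 6 T cells held 2 or more. Csf1r, the receptor for the macrophage growth factor CSF1, had a median of 3 UMIs. A Ly6c2 UMI was absent from 118 of the cells and a C1q UMI from 76, so many carried small amounts of these transcripts below the limits.

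The label was checked on 13 patrolling monocyte genes that the rule did not use, a list chosen with earlier results of these data known. Patrolling monocytes held a median of 8 of the 13, against 3 in Ly6c2-high monocytes and 4 in C1q-high macrophages, and 180 of the 204 held at least 5. Cells that failed only by holding 1 UMI of Treml4 and Ace held a median of 5, and those that held none a median of 3. Adgre4, an adhesion receptor related to F4/80, fell step by step with that UMI count, without a single break at the limit. It stood at 207 UMIs per 1000000 UMIs (CPM) in patrolling monocytes with 3 or more UMIs of Treml4 and Ace, at 118 CPM in those with exactly 2, at 42.0 CPM in the 209 cells that failed only by holding 1 UMI, and at 5.02 CPM in the 2407 cells that held none. Spn followed the same order, at 111, 43.4, 37.7 and 8.95 CPM. Its intervals on either side of the limit overlapped, at 28.1 to 64.1 CPM with exactly 2 and 28.9 to 48.4 CPM with 1. Cd74, the invariant chain of MHC class II, was lower in patrolling monocytes than in the cells outside the limit, at 5545, 5615, 9219 and 10998 CPM. Without library 8 the values in that order were 335, 147, 63.9 and 5.75 CPM for Adgre4, 194, 61.6, 38.5 and 9.61 CPM for Spn, and 6776, 5725, 8627 and 9660 CPM for Cd74. Xcr1, a marker of conventional dendritic cells, followed no such order, at 0.936, 13.9, 46.9 and 11.5 CPM, and the 13.9 CPM came from 8 UMIs in 1 cell.

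The 250 bases before the RefSeq start of Treml4, Adgre4 and Ear2 (GRCm38.p6, plus strand) are shown because Treml4 defines the cells and because Adgre4 and Ear2 are patrolling monocyte genes outside the rule whose windows hold a match to a searched pattern. Capitals mark matches to the C/EBP pattern TTGCNNAA on either strand.
Treml4, chr17:48264045-48264294: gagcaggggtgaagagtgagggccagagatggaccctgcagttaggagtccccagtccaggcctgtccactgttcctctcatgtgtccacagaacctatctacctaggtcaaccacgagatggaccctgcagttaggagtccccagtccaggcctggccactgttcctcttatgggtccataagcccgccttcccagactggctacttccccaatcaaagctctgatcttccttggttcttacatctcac
Adgre4, chr17:55749734-55749983: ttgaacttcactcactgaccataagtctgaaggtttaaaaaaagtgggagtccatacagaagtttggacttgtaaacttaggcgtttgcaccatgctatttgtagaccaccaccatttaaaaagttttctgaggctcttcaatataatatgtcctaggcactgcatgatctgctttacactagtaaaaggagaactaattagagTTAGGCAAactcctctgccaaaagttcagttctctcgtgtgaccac
Ear2, chr14:44102404-44102653: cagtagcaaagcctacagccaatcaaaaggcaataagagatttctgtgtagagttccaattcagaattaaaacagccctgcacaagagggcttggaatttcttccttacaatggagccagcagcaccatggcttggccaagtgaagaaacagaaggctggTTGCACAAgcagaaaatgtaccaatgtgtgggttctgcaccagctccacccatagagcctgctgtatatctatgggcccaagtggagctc
The match before Adgre4 lay 46 to 39 bases from the start on the minus strand, and the match before Ear2 lay 90 to 83 bases from it on the plus strand. The Treml4 window held none of the 4 patterns searched, which were AAAGGTCA (the NR4A monomer element), GAGGAAGT (PU.1), ATGCAAAT (the octamer bound by POU factors such as Pou2f2) and TTGCNNAA. Of the 12 patrolling genes with a window, Treml4 and Ace included, only Adgre4 and Ear2 held any of the 4. Over 32851 promoter windows of the same length, 9.56% held the C/EBP pattern. Among the 243 genes higher in patrolling monocytes than in Ly6c2-high monocytes that had a window, 25 (10.3%) held it, beside 9.59% of all tested genes. The PU.1 pattern was held by 15 of the higher genes (6.17%) and by 16 of 228 lower genes (7.02%), beside 3.81% of all tested genes. The NR4A pattern was held by 2 (0.823%) and 3 (1.32%), beside 1.18%, and the octamer by 5 (2.06%) and 6 (2.63%), beside 1.49%. These matches are letters in a window and not shown to be bound.

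Gene levels were compared with those of Ly6c2-high monocytes and C1q-high macrophages in libraries 1, 2, 7 and 8, the libraries with at least 20 cells of each population, which held 151 of the patrolling monocytes. The level of a gene was its CPM over the summed cells of a library, averaged over the 4 libraries with equal weight. A gene was called when its mean over both populations reached 10 CPM, the fold was at least 2 and the direction was the same in all 4 libraries. Against Ly6c2-high monocytes, 4.72% of 6732 genes were called higher and 4.26% lower. Against C1q-high macrophages, 9.11% of 7099 genes were called higher and 12.4% lower. Of the 13 patrolling monocyte genes, 11 were called higher in each comparison and none lower, with a median log2 fold of 2.95 against Ly6c2-high monocytes and 2.84 against macrophages, beside medians of 0.04 and -0.04 over all genes tested. All 13 passed the filter on low values. Without library 8 the counts were 13 and 12.

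Adgre4 separated patrolling monocytes from both comparators in every library. It measured 173, 310.1, 269 and 129.9 CPM in the patrolling monocytes of libraries 1, 2, 7 and 8, against 5.81, 5.95, 12.3 and 6.34 CPM in Ly6c2-high monocytes and 0.353, 0.241, 0.532 and 0.615 CPM in macrophages. Every library of patrolling monocytes stood above every library of the other populations, and the mean was 29.0-fold that of Ly6c2-high monocytes. An Adgre4 UMI was found in 58.8% of patrolling monocytes, 4.29% of Ly6c2-high monocytes and 0.259% of T cells, and in 15.8%, 0.703% and 0.0942% when each cell was thinned to 1000 UMIs. Spn, the sialoglycoprotein CD43 by which these cells are sorted, measured 86.4, 177, 134 and 59.2 CPM, against 5.81, 8.33, 13.3 and 8.68 CPM in Ly6c2-high monocytes (12.7-fold). T cells also express Spn, at a mean of 110.1 CPM, so for this gene they are no measure of free RNA.

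The integrin chains of the list were higher in patrolling monocytes in every library. Itgal, the alpha chain of LFA-1 on which crawling along vessels depends, measured 410.4, 649.7, 486 and 339.9 CPM, against 98.8, 94.0, 103 and 85.1 CPM in Ly6c2-high monocytes and a mean of 66.0 CPM in macrophages. Itga4, the alpha chain of VLA-4, measured 259, 664, 755 and 302 CPM, with means of 138 CPM and 78.8 CPM in the comparators. T cells also express both, at 149.8 and 254 CPM. Ceacam1, an adhesion molecule of the carcinoembryonic antigen family, measured 79.2, 185, 238 and 88.4 CPM, with means of 19.1 and 5.14 CPM in the comparators.

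Pou2f2, a lymphoid and myeloid transcription factor also named Oct-2, measured 317, 524, 548 and 281 CPM in patrolling monocytes, with means of 83.1 CPM in Ly6c2-high monocytes and 63.8 CPM in macrophages. Gngt2, a G protein gamma subunit, measured 1023, 1425, 1334 and 845 CPM, with means of 259 and 264 CPM. Eno3, the muscle form of the glycolytic enzyme enolase, measured 72.0, 221, 258 and 56.1 CPM, with means of 6.27 and 7.28 CPM. Ear2, an eosinophil-associated ribonuclease, measured 324, 273, 362 and 95.6 CPM, with means of 25.7 and 28.0 CPM. Ear2 has near-identical paralogs among which reads can be split, so its counts are uncertain. For these 4 genes no library of patrolling monocytes overlapped the comparators.

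The lipid genes of the list were higher with a wide spread between libraries. Cd36, a receptor for fatty acids and oxidised lipoproteins, measured 144, 169.8, 579 and 65.5 CPM, with means of 16.0 CPM in Ly6c2-high monocytes and 52.4 CPM in macrophages. Fabp4, a fatty acid-binding protein, measured 122, 177, 299.8 and 24.9 CPM, with means of 2.65 and 20.6 CPM. Fabp4 was not called against macrophages because library 8 ran in the opposite direction there. Against macrophages, Cd36 fell from a log2 fold of 2.19 to 0.53 when UMIs were summed over all libraries. In those sums library 8 gave 58.5% of the UMIs of patrolling monocytes, and both populations took in all 12 libraries. The cause of the fall was not tested.

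Nr4a1 and Cx3cr1, both widely used to define patrolling monocytes, separated the populations least. Nr4a1 (chr15:101254269-101274795) measured 454, 775, 972 and 558 CPM, against 284, 314, 469 and 421 CPM in Ly6c2-high monocytes and 165, 255, 276 and 268 CPM in macrophages. Patrolling monocytes were the higher in each library, but the log2 fold of 0.89 against Ly6c2-high monocytes lay under the limit of 1 (the gene was called without library 8), while the 1.52 against macrophages passed it. Cx3cr1, the fractalkine receptor, measured 216, 266, 362 and 206 CPM, against 88.4, 99.9, 129.7 and 212 CPM in Ly6c2-high monocytes and 377, 381, 339 and 330.1 CPM in macrophages. In library 8 the levels of patrolling and Ly6c2-high monocytes lay side by side, and macrophages held more Cx3cr1 than patrolling monocytes in all libraries but library 7. Library 8 was the lowest of the 4 libraries for 10 of the 13 genes and library 1 for the other 3.

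**Figure D2:**
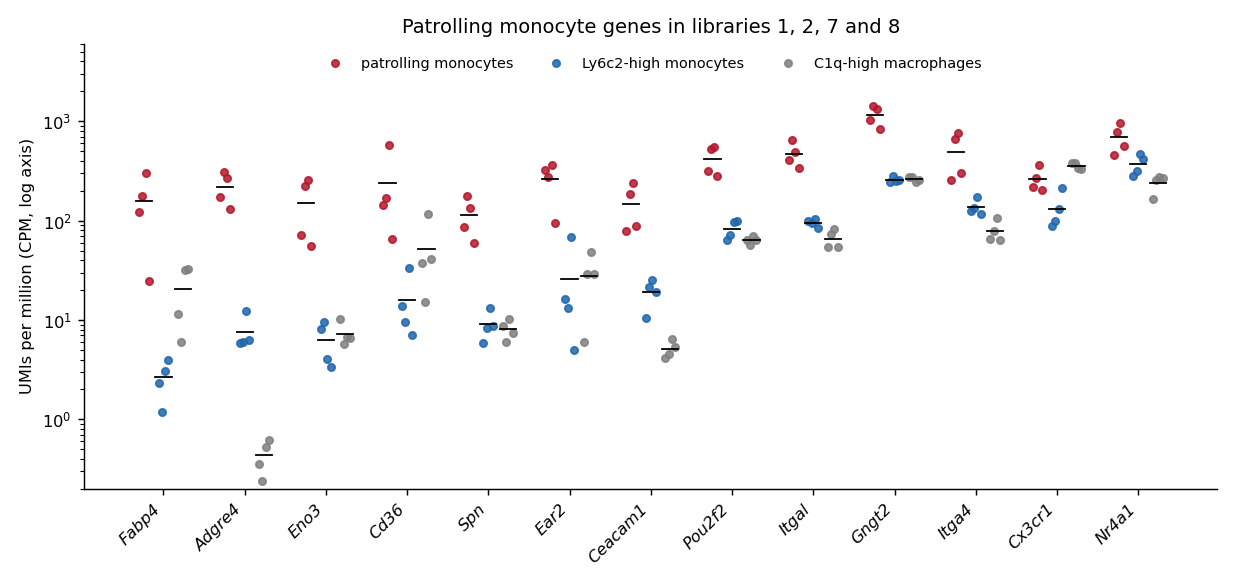
CPM of the 13 patrolling monocyte genes (log axis) in patrolling monocytes, Ly6c2-high monocytes and C1q-high macrophages, with 1 point for each of libraries 1, 2, 7 and 8 and a bar at their mean. In each comparison 11 of the genes were called higher, beside 4.72% of all tested genes against Ly6c2-high monocytes and 9.11% against macrophages. Cx3cr1 overlaps in both comparisons.

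Beyond that list, the genes furthest above Ly6c2-high monocytes included Spic, Cd300e, Slc12a2, Heg1, Pparg and Hpgd. Cd300e, an activating receptor of the CD300 family, measured 21.6, 73.8, 186 and 33.3 CPM in the 4 libraries against a mean of 0.923 CPM in Ly6c2-high monocytes and 0.927 CPM in macrophages. Pparg, a lipid-sensing nuclear receptor, measured 28.8, 59.1, 51.7 and 10.4 CPM against means of 1.52 and 3.46 CPM. Spic, an Ets-family factor known from splenic red pulp macrophages, rested on 22 UMIs in 17 patrolling monocytes and 2 UMIs in all Ly6c2-high monocytes, at 13.4 CPM (8.39 to 20.3) and 0.235 CPM (0.0284 to 0.847) over all libraries. Hpgd, which inactivates prostaglandins, had means of 90.8 and 5.73 CPM, Heg1, a membrane protein of vessel walls, of 74.2 and 2.65 CPM, and Slc12a2, an ion cotransporter, of 65.1 and 1.91 CPM. T cells held Heg1 at 17.5 CPM and Slc12a2 at 8.71 CPM.

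The 10 genes furthest below Ly6c2-high monocytes included Ccl2, Ccl12, Ly6a, C3ar1, Nos2 and Socs2. Ccl2 and Ccl12, chemokines that attract monocytes through CCR2, had means of 153 against 1095 CPM and 17.8 against 287 CPM. Ly6a, the antigen Sca-1, had means of 140.1 and 922 CPM, and C3ar1, the receptor for complement fragment C3a, of 30.2 and 188 CPM. Nos2, inducible nitric oxide synthase, had means of 3.15 and 22.8 CPM but rested on 13 UMIs in 4 patrolling monocytes, and its log2 fold of -2.86 became 1.02 when libraries with 7 or more cells of both populations entered. Socs2, a feedback inhibitor of cytokine receptors, rested on 7 UMIs in patrolling monocytes, with a log2 fold of -4.20. From libraries 1 to 6 only libraries 1 and 2 entered, where patrolling monocytes held no UMI of Socs2. Its log2 fold of -0.36 there used 3 counts in place of 0 and is a bound, not a measured fold. Vdr, Slc37a2, Tfec and Gas7 completed the 10 lowest, with means between 2.34 and 5.98 CPM in patrolling monocytes against 18.6 to 36.8 CPM. Of the 4 libraries, patrolling monocytes held UMIs of Socs2, Vdr, Slc37a2 and Tfec in library 8 only. With at least 3 UMIs of Treml4 and Ace, where library 8 alone entered, the log2 folds of Vdr, Slc37a2 and Tfec were -0.59, -0.60 and -0.70.

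Gene groups that the rule did not use showed where patrolling monocytes parted from Ly6c2-high monocytes and where they did not. Of 8 Ly6c2-high monocyte genes, 3 were called lower and none higher, beside 4.26% and 4.72% of all tested genes. Their median log2 fold was -0.95. The Ly6c2 limits set these populations apart, so genes that vary with Ly6c2 may part through the selection. Vcan, a matrix proteoglycan, F13a1, coagulation factor XIII, and Fn1, fibronectin, had log2 folds of -1.96, -2.16 and -1.26. Vcan shrank to -0.82 with at least 3 UMIs of Treml4 and Ace, where library 8 alone entered. Plac8, a small cysteine-rich protein of monocytes, stood at 4825 against 4328 CPM and Hp, haptoglobin, at 266 against 247 CPM, neither of them called. Chil3, a chitinase-like protein, stood at 836 against 1638 CPM and Ccr2, the receptor that brings monocytes out of the bone marrow, at 359 against 679.9 CPM, again not called. Without library 8, 5 of the 8 were called lower, with Chil3 and Ccr2 among them. Of 9 macrophage genes, 8 were tested and 4 called lower (Trem2, Ms4a7, Arg1 and Spp1), while Gpnmb was called higher without library 8.

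Among 24 transcription factors, 23 were tested. Beside 4.72% and 4.26% of all tested genes, 5 were called higher and 1 lower, with a median log2 fold of 0.36. The higher ones were Pou2f2 and Pparg, Klf2, a factor of quiescence and vessel trafficking (318 against 121 CPM), Irf1, an interferon-regulated factor (374 against 135 CPM), and Hes1, a Notch target (88.6 against 34.5 CPM). Maf, a macrophage factor, was called lower at -1.01 on the log2 scale, a value that shrank to -0.38 in libraries 1 to 6 alone, -0.72 without library 7 and -0.87 without library 8. Spi1, Cebpb, Irf8 and Klf4 were among those not called, at log2 folds of 0.39, 0.36, 0.22 and -0.35.

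The 16 adhesion genes had a median log2 fold of 0.65. Of them, 6 were called higher in patrolling monocytes and none lower, beside 4.72% and 4.26% of all tested genes. Besides Itgal, Itga4, Spn and Ceacam1 they were Pecam1, CD31 of vessel junctions and leukocytes (46.2 against 12.6 CPM), and Icam1, a ligand of LFA-1 (150.1 against 72.6 CPM). Icam1 passed the limit narrowly at 1.05 and stood at 0.98 without library 2 and 0.95 without library 7. It fell to 0.66 with UMIs summed over all libraries. With at least 3 UMIs of Treml4 and Ace, where library 8 alone entered, it fell to 0.19. Of the chemotactic receptors, Fpr1, a receptor for bacterial formyl peptides, was called higher, with means of 22.3 and 8.43 CPM, and C3ar1 lower. Fpr1 fell from a log2 fold of 1.40 to 0.63 in libraries 1 to 6 alone, and without library 8 Cx3cr1 was also called higher and Ccr1 and Ccr2 lower. S1pr5, the sphingosine-1-phosphate receptor that patrolling monocytes need to leave the bone marrow, had means of 15.3 and 0.594 CPM and was too low to be tested.

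Of 6 Fc receptor genes, 2 were called lower and none higher, beside 4.26% and 4.72% of all tested genes. Fcgr1, the high-affinity IgG receptor, had means of 229 and 715 CPM, and Fcgr2b, the inhibitory one, was called at -1.14 on the log2 scale but stood at -0.94 without library 7. Fcgr4, an activating IgG receptor known for its high level on patrolling monocytes, had means of 296 and 266 CPM and was not called. A list named checkpoint and inhibitory genes also holds activating receptors and receptor ligands. Of its 21 genes, 19 were tested, 5 were called higher, beside 4.72% of all tested genes, and none lower. These were Cd300e, Cd300a, an inhibitory receptor for phospholipids of dying cells (355 against 92.2 CPM), Lilra5 (32.2 against 2.35 CPM), Clec4a1 (256 against 116 CPM) and Trem3 (106 against 32.5 CPM). Clec4a1 fell from a log2 fold of 1.14 to 0.94 with UMIs summed over all libraries. Cd300e, Lilra5 and Trem3 are activating receptors. Cd274, the ligand PD-L1, was not called, at 185 against 124 CPM.

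Of 22 cytokine and chemokine genes, 21 were tested, with 4 called lower (Ccl2, Ccl12, Ccl5 and Cxcl9) and 1 higher. Over all tested genes 4.26% were called lower and 4.72% higher. Ccl5 had means of 79.9 and 461 CPM. Cxcl9, an interferon-gamma target, shrank from a log2 fold of -1.31 to -0.83 without library 2 and -0.54 in libraries 7 to 12 alone. The higher gene was Tnf, at 142 against 47.5 CPM, while Il1b stood at 4912 against 5497 CPM and was not called. Of 12 interferon-stimulated genes, 5 were called lower and none higher, with a median log2 fold of -0.84. They were Isg15, a ubiquitin-like modifier (139 against 362 CPM), Irf7, the amplifier of type I interferon (203 against 593 CPM), Usp18, Cmpk2 and Ifit3. Ifit3 crossed the limit only narrowly at -1.01, with -0.87 without library 1 and -0.62 without library 2, and Cmpk2 stood at -0.84 without library 7. With UMIs summed over all libraries 2 of the 12 were called lower.

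No MHC class II gene was called between the monocyte populations, with 0 of 7 past the limits and a median log2 fold of -0.26, but H2-DMa was called lower without library 8, in libraries 1 to 6 alone and without neutrophil transcripts. Cd74 had means of 5535 CPM in patrolling monocytes, 6705 CPM in Ly6c2-high monocytes and 7102 CPM in macrophages. Of 16 lipid and scavenger genes, 15 were tested, with Cd36, Fabp4 and the cholesterol exporter Abcg1 (126 against 44.9 CPM) higher and Lpl, Msr1 and Axl lower. Abcg1 fell from 1.49 to 0.87 with UMIs summed over all libraries. Lpl, lipoprotein lipase, turned from -2.60 to 1.58 when libraries with 7 or more cells of both populations entered. Of 14 lysosome and protease genes, 13 were tested, with 2 called in each direction, beside 4.72% higher and 4.26% lower over all tested genes. The cysteine protease inhibitor Cst3 (4845 against 2142 CPM) and the acid lipase Lipa (149 against 48.8 CPM) were higher, and the cathepsins Ctsl and Ctsc lower. Lipa fell from 1.61 to 0.98 with UMIs summed over all libraries. It fell to 0.24 with at least 3 UMIs of Treml4 and Ace, where library 8 alone entered. Cst3 stood at 0.94 without library 1, Ctsl at -0.97 without library 2 and Trem2, of the macrophage genes, at -0.99 without library 2. With at least 3 UMIs of Treml4 and Ace, Cst3 stood at 0.51, Ctsl at -0.88 and Trem2 at -0.71.

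Among 12 survival genes, Bcl2 and Bbc3 were called higher and none lower. Bcl2, an anti-apoptotic protein of the mitochondrial outer membrane, measured 50.4, 88.6, 124 and 26.0 CPM against 12.8, 14.3, 26.6 and 15.0 CPM in Ly6c2-high monocytes. The lowest library of patrolling monocytes, library 8, fell just below the highest Ly6c2-high library, and T cells held Bcl2 at 388 CPM. Bbc3, the pro-apoptotic protein PUMA, stood at 1.61 on the log2 scale and at 0.75 in libraries 7 to 12 alone. The gene that encodes the drug target, Ezh2, measured 50.4, 22.1, 51.7 and 18.7 CPM in patrolling monocytes, 17.4, 14.3, 15.3 and 16.0 CPM in Ly6c2-high monocytes and a mean of 47.6 CPM in macrophages. It was called higher at a log2 fold of 1.18, alone among 13 polycomb genes of which 10 were tested, beside 4.72% of all tested genes. Its levels in libraries 1, 2 and 7 rested on few UMIs, and in library 8 the monocyte populations were close. The fold stood at 0.93 without library 7, 0.72 with UMIs summed over all libraries and 0.86 with libraries of at least 7 cells. Without cells holding UMIs of 9 genes of other cell types it was 0.98. With at least 3 UMIs of Treml4 and Ace, where library 8 alone entered, it was 0.16. Without library 8 there were 2 called polycomb genes (Ezh2 and Mtf2), in libraries 1 to 6 alone 4, and without neutrophil transcripts 0. In that last setting the log2 fold of Ezh2 did not fall below the limit, but the libraries no longer shared a direction. No label says which of these libraries came from EZH2i-treated mice, so the part of the treatment in these values was not tested.

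**Figure D3:**
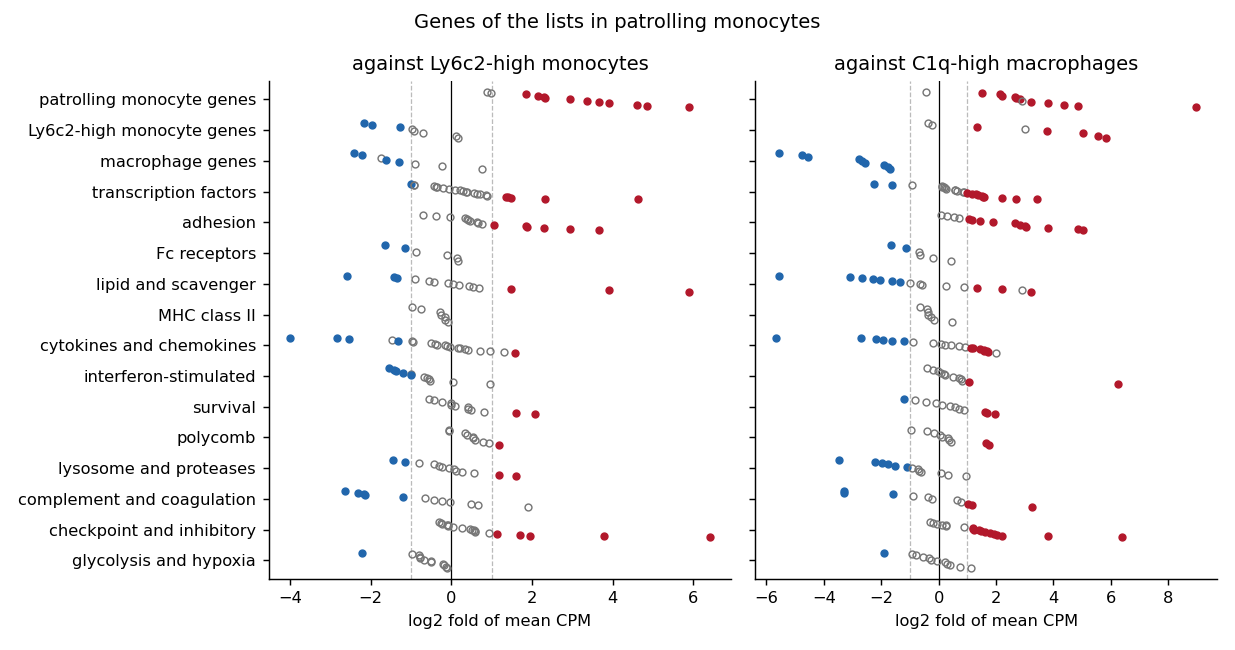
Log2 fold of each tested gene of the lists named at the left in patrolling monocytes over Ly6c2-high monocytes (left) and over C1q-high macrophages (right). Red points were called higher, blue points lower and open points not called, and the dashed lines stand at -1 and 1. Adhesion genes hold 6 red and 0 blue points on the left and 11 and 0 on the right.

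Against C1q-high macrophages more genes were called in each direction. All 9 macrophage genes were called lower, with a median log2 fold of -2.65, and 5 of the 8 Ly6c2-high monocyte genes were called higher, with a median of 3.39. The shares of all tested genes were 12.4% lower and 9.11% higher. The C1q limits set these populations apart, so genes that vary with C1q may part through the selection. Mrc1, the mannose receptor, had means of 11.1 and 303 CPM, Mertk, a receptor for dying cells, of 1.30 and 60.8 CPM, and Apoe, apolipoprotein E, of 3192 and 20063 CPM. The genes furthest below macrophages were close to absent. Siglec1, Cadm1 and Mmp2 gave 2, 2 and 1 UMIs in all 204 patrolling monocytes. Siglec1, a sialic acid receptor of resident macrophages, stood at 1.22 CPM (exact Poisson interval 0.147 to 4.40) over all libraries against 48.3 CPM in macrophages. Fcrls, an Fc receptor-like gene of resident macrophages, had means of 5.94 and 325 CPM. Cp, Folr2, Igfbp4, Psd3 and Fblim1 gave 1 to 3 UMIs each in patrolling monocytes, and Syngr1 gave 5.

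The genes furthest above macrophages, after Adgre4, were Pglyrp1, Heg1, Gm15987, Cd300e, Ifitm6, Rnf144a, Mirt1, G0s2 and Ccdc88c. Ifitm6, an interferon-induced membrane protein of blood monocytes, measured 238, 251, 289 and 219 CPM in the 4 libraries against a mean of 3.24 CPM. Pglyrp1, a peptidoglycan-binding protein, measured 72.0, 199, 82.7 and 88.4 CPM against a mean of 0.793 CPM. G0s2, an inhibitor of lipolysis, measured 28.8, 258, 269 and 838 CPM against a mean of 5.04 CPM. G0s2 was found in 50 patrolling monocytes only, and neutrophils express it and Pglyrp1 strongly. Over all tested genes 9.11% were called higher and 12.4% lower. Among the lists, 11 of 15 tested adhesion genes, 10 of 23 transcription factors and 12 of 19 genes of the checkpoint and inhibitory list were called higher. The latter held the activating receptors Cd300e, Trem1, Trem3 and Pilrb1 and the ligands Cd274 and Cd80 beside inhibitory ones such as Cd300a and Pirb, and Cd80 fell from 1.19 to 0.98 without neutrophil transcripts. Of the adhesion genes, Selplg fell from 1.05 to 0.93 without library 2. The transcription factors included Nr4a1, Cebpb (3448 against 1150.2 CPM), Irf1, Ahr and Tcf7l2, while Cebpa and Maf were lower. Tcf7l2 stood at 0.79, Bcl6 at 0.85 and Relb at 0.69 without library 7, against 1.30, 1.16 and 1.00. In libraries 1 to 6 alone Tcf7l2 stood at 0.30, and with at least 3 UMIs of Treml4 and Ace Relb stood at 0.47. Of 16 lipid and scavenger genes, 7 were called lower, among them Apoe, Mertk, Abca1 and Stab1, and 3 higher (Cd36, Abcg1 and Olr1). MHC class II was again not called for any of 7 genes.

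Markers of other cell types were summed over the patrolling monocytes. The tumor cell genes Krt8, Krt18 and Epcam, the 4 mast cell and basophil genes and the 4 globin genes were at 0 UMIs. Cd79a and Ms4a1 of B cells, Ncr1 of NK cells, Cdh5, Cldn5 and Tek of endothelium, Ppbp, Itga2b and Gp9 of platelets and Klk1 of plasmacytoid dendritic cells were also at 0. Cd79b of B cells gave 12 UMIs in 11 cells, both T cell genes 6 in 6, the 4 NK cell genes 9 in 7, the 5 endothelial genes 9 in 8, the 4 platelet genes 28 in 20 (all Pf4) and both plasmacytoid genes 1 in 1. The 7 conventional dendritic cell genes gave 62 UMIs in 18 cells (8.82%), between 20.7 and 101 CPM over the 4 libraries.

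Neutrophil genes were far more abundant in these cells than those of any other list of this kind. The 6 genes S100a8, S100a9, Csf3r, Retnlg, Cxcr2 and Mmp9 gave 8396 UMIs in 108 patrolling monocytes, between 749 and 6500 CPM over the 4 libraries. In 32 cells the summed S100a8 and S100a9 count was at least 10 per 10000 UMIs or Retnlg was present, 13 of them in library 8. These 32 cells had a median of 10804.5 UMIs, against 5501 in the other 172, and they were chosen by S100a8, S100a9 and Retnlg, so those genes must differ. S100a8, a calcium-binding protein abundant in neutrophils, stood at 8894 CPM (8592 to 9203) against 29.0 CPM (20.4 to 40.0), Cxcr2, the neutrophil chemokine receptor, at 163 CPM (124 to 209) against 3.92 CPM (1.27 to 9.16), and Cxcl2, a chemokine for neutrophils, at 13345 CPM against 1645 CPM. Adgre4 stood at 146 CPM (110 to 191) against 184 CPM (162 to 210) and Spn at 81.3 CPM (54.8 to 116) against 89.5 CPM (73.8 to 107), with intervals that overlapped. The 32 cells held less Gngt2, at 810.01 CPM (721 to 907) against 1102 CPM (1045 to 1161), less Csf1r, at 393 CPM (331 to 462) against 512 CPM (473 to 552), and less Plac8, at 4175 against 6062 CPM, and more Klf2, at 504 CPM (434 to 582) against 243 CPM (217 to 272). Without library 8 the 19 remaining cells held Cxcl2 at 8569 against 1647 CPM in 114 others and Gngt2 at 950.5 CPM (796 to 1126) against 1399 CPM (1301 to 1502), while the intervals of Klf2 overlapped, at 376 CPM (282 to 492) and 326 CPM (279 to 378). No patrolling monocyte exceeded 3 times the median UMI count of its library. The median patrolling monocyte held 0.646 times that count, so a mixed barcode need not reach this limit. The part of mixed barcodes in these values was not tested. Without the 32 cells, and with the comparators held to the same limit, the 4 neutrophil genes called higher than in Ly6c2-high monocytes became 0 and the 4 called higher than in macrophages became 1. The patrolling list then gave 11 and 10 of 13. Against macrophages, Cxcl2, Ccl3, Mmp9 and Il15 fell below the limit, from log2 folds of 1.59, 1.71, 3.18 and 1.45 to 0.62, 0.65, 0.60 and 0.77, and against Ly6c2-high monocytes Egr1 fell from 1.60 to 0.80.

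**Figure D4:**
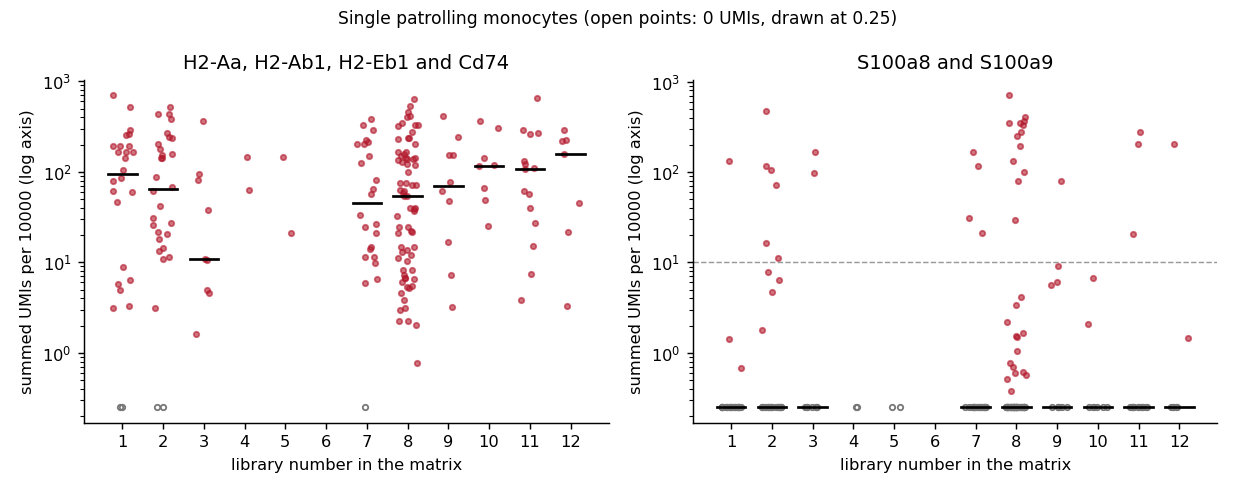
Each point is 1 patrolling monocyte, placed by library, with the sum of H2-Aa, H2-Ab1, H2-Eb1 and Cd74 (left) and the summed S100a8 and S100a9 (right) in UMIs per 10000 on log axes, with cells at 0 drawn as open points at the bottom. Lines mark the median of libraries with at least 7 patrolling monocytes and the dashed line marks 10 per 10000 on the right. MHC class II runs from 0 to 701 with medians from 10.8 to 155, and S100a8 with S100a9 has a median of 0 in all of these libraries, with 31 cells at or above the dashed line.

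Patrolling monocytes varied widely in MHC class II. H2-Aa, H2-Ab1, H2-Eb1 and Cd74 together had a median of 62.3 UMIs per 10000, with 10% of cells under 4.67 and 10% over 316. Ly6c2-high monocytes had a median of 78.8 and macrophages of 145. Library medians ran from 10.8 in library 3 to 155 in library 12. The 102 cells at or below the median were set beside the 102 above it, a split made on these data and so given as a description. Itgal stood at 520 CPM (472 to 572) in the MHC class II-low cells and at 300.5 CPM (264 to 340.1) in the MHC class II-high cells. Spn stood at 117 CPM (94.7 to 143) and 58.9 CPM (43.6 to 77.9), Ceacam1 at 184 CPM (155 to 216) and 87.7 CPM (68.8 to 110), and Cd300e at 71.5 CPM (54.3 to 92.4) and 30.05 CPM (19.4 to 44.4). Over all libraries the intervals of these 4 genes did not overlap. Among the 13 patrolling genes, Cx3cr1, Spn, Itgal, Pou2f2, Cd36 and Ceacam1 stood higher in the MHC class II-low cells with intervals apart. Those of the others overlapped. How many of all genes part in this way was not computed, and the intervals leave out variation between cells. Lyz2, outside the list, was also higher in the MHC class II-low cells, at 11048 against 7499 CPM. Cst3 was lower, at 3081 against 3946 CPM, and the intervals of both were apart. Neutrophil transcripts moved with the split, with S100a8 at 3219 against 851 CPM, S100a9 at 4015 against 1359 CPM and Cxcl2 at 5902 against 2684 CPM, and 19 of the 32 cells with such transcripts were MHC class II-low. Of the dendritic cell genes, Xcr1 gave 0 UMIs in MHC class II-low cells and 9 in 2 MHC class II-high cells. Flt3 stood at 2.46 and 9.62 CPM with overlapping intervals, and Cd209a and Zbtb46 gave at most 1 UMI on either side. The intervals of Spn overlapped in library 8 alone, at 74.9 CPM (53.5 to 102) and 39.7 CPM (23.2 to 63.6). Those of Cx3cr1 overlapped there too, at 223 CPM (185 to 267) and 185 CPM (146 to 230). Without neutrophil transcripts Cx3cr1 also overlapped, at 239 CPM (201 to 281) and 180 CPM (149 to 214). Those of Cd300e overlapped without library 8, at 105 CPM (70.1 to 150.3) and 54.4 CPM (34.1 to 82.4), and without neutrophil transcripts, at 63.9 CPM (45.2 to 87.7) and 33.9 CPM (21.5 to 50.8). Chil3 moved the same way, at 1432 and 629.8 CPM, whereas Adgre4, at 182 CPM (154 to 214) and 169 CPM (143 to 199.9), and Plac8, at 5599.9 and 5676 CPM, were close together. The order of Itgal and Chil3 held in library 8 alone (Itgal 436 and 219.7 CPM, Chil3 1563 and 645 CPM), without library 8 (Itgal 682 and 386 CPM, Chil3 1179.7 and 614 CPM), and without the 32 cells with neutrophil transcripts (Itgal 487 and 311 CPM, Chil3 1666 and 646 CPM).

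The cells also differed by which gene had admitted them. The 117 cells with both Treml4 and Ace held more of several patrolling genes than the 37 with Treml4 alone or the 50 with Ace alone. Spn stood at 125, 24.8 and 49.5 CPM in that order, Gngt2 at 1273, 642 and 789 CPM, Pou2f2 at 445, 202 and 206 CPM and Ceacam1 at 177, 71.3 and 85.9 CPM. Fn1, a gene of Ly6c2-high monocytes, ran the other way at 332, 831 and 568 CPM, and so did H2-Aa of MHC class II at 1861, 2975 and 3013 CPM. Adgre4 stood at 222, 130.3 and 102 CPM, so cells with only 1 of the 2 genes still held far more of it than the 7.86 CPM of Ly6c2-high monocytes. Without library 8 the order held for Spn (173, 39.3 and 92.9 CPM) and Fn1 (387, 771 and 540 CPM) but not for H2-Aa, at 2681, 3368 and 2444 CPM. The median depth was 6350, 6295 and 4975 UMIs. Cycling transcripts were rare, with an Mki67 UMI in 9 cells and at least 3 UMIs of Mki67 and Top2a together in 4, of which 2 came from library 1.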

How the data were processed

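Per the labels, CD45+ tumor cells of 12 mice were run on the 10x 3′ v3 assay. The authors deposited 1 matrix of whole-number UMI counts for 31053 genes and 140639 barcodes. The submitters' processing notes name Cell Ranger 2.1.1, Seurat and mm10, while the matrix header gives Cell Ranger 3.0.2. The matrix numbers its libraries 1 to 12 without naming mice, so values are given by library number.

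Kept barcodes held over 200 and under 5000 genes, with a mitochondrial share of UMIs up to 10%. The selection rule, the comparators and the gene lists were chosen with earlier results of these data known. Named genes are those of the lists and, in each comparison, the 10 called genes with the highest and the 10 with the lowest fold. Counts were summed per library and population and expressed as CPM. A population without any UMI of a gene over the libraries compared was given the CPM of 3 counts, so such a fold is a bound. No test was run between populations, a choice made because library numbers are not tied to mice and cells are not replicates, so the matrix was handled as 1 pooled sample. Binomial (Clopper-Pearson) and Poisson intervals are exact, at 95%, and cover counting error only. Shares were also computed with cells thinned to 1000 or 3000 UMIs, for the deeper cells only: 1 patrolling monocyte, 26 Ly6c2-high monocytes and 584 T cells held under 1000 UMIs. No doublet caller was used. The selection itself removes cells with T cell, plasmacytoid or much macrophage RNA, and counts without cells holding other types' transcripts are given. Promoter windows are from RefSeq (GRCm38.p6), which held 12 of the 15 patrolling genes including Treml4 and Ace, and gene positions are on GRCm38. Some genes of the lists are not reported here. A gene symbol carried by more than 1 row of the matrix was left out. The scripts were tested on simulated data before use. The software was pandas 2.3.3, scipy 1.17.1, matplotlib 3.10.9, numpy 2.4.6 and Python 3.11.15. Alternatives tried were other depth, mitochondrial, Treml4 and Ace, C1q, CPM and fold limits, summing over libraries, leaving out libraries, and removing cells with transcripts of other types.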

Additional observations from a re-analysis of the deposited data

Results flagged for a closer look

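Outside the limits on genes and mitochondrial UMIs, 2 barcodes met all gene conditions of the patrolling monocyte rule. This was drawn out because those barcodes take no part in any comparison above. Both exceeded the mitochondrial limit and lay in 2 different libraries, with a median of 16.8% mitochondrial UMIs against 3.21% in the 204 patrolling monocytes and a median of 2025.5 UMIs. They held 2 UMIs of Adgre4, or 494 CPM. None held 5000 or more genes or 200 or fewer.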

How the results depend on the processing

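No analysis by treatment group was made because the replicate numbers of the labels are tied to no library. The populations were compared within libraries, without a test. Counts of patrolling monocytes and their share of kept cells moved with the selection limits: 121 cells (0.0939%) with at least 3 UMIs of Treml4 and Ace, 413 (0.320%) with at least 1, 76 (0.0590%) with no C1q UMI and 133 (0.108%) without library 8. The share was 0.237% at a mitochondrial limit of 5%, 0.133% without cells holding neutrophil transcripts and 0.0854% after thinning to 3000 UMIs.

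Against Ly6c2-high monocytes, 318 genes were called higher and 287 lower. The counts were 167 and 184 with UMIs summed over all libraries, 134 and 95 at a filter of 50 CPM, and 63 and 41 at a fold of 4, and 757 were lower with no filter. Leaving out library 1, 2, 7 or 8 gave 344 to 503 higher and 329 to 423 lower, with the 503 reached without library 8, where 313 of the 318 remained. Libraries 1 to 6 alone gave 681 and 548, and libraries 7 to 12 alone 506 lower. Fewer libraries must share a direction in these subsets. Against macrophages, 647 higher and 879 lower became 354 and 233 at a filter of 50 CPM, 176 and 257 at a fold of 4, and 1915 lower with no filter. Leaving out a library gave 693 to 749 higher and 870 to 999 lower.

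Of 223 called comparisons of named genes under 18 alternatives, 4 of 4014 values reversed and 185 fell under a log2 fold of 1. No fold could move under 5 of the 18, which changed only the filter, the fold limit or the direction rule or left out library 4. With libraries of at least 7 cells of both populations, Lpl became 1.58 against Ly6c2-high monocytes and 0.22 against macrophages, and Nos2 1.02 against Ly6c2-high monocytes. With at least 3 UMIs of Treml4 and Ace, where library 8 alone qualified, Hbb-bs became 1.15 against macrophages. Patrolling monocytes held no UMI of Hbb-bs. Its main value of -3.19 and the 1.15 are bounds made by 3 counts in place of 0, so the change of sign is no measured reversal. The cause was not tested for Lpl and Nos2. Adgre4, Spn, Itgal, Itga4, Ceacam1, Pou2f2, Gngt2, Eno3, Ear2, Klf2, Irf1, Cd300a and Cd300e stayed at a log2 fold of at least 1 over Ly6c2-high monocytes under the other 13. The alternatives that left out library 8, thinned to 3000 UMIs, split the libraries by Y-linked and Xist transcripts, admitted libraries of 7 cells, averaged single cells, removed neutrophil transcripts or left library 8 out of the splits among patrolling monocytes were chosen after seeing the data. Depth limits genes under about 10 CPM in a population of 204 cells, and genes at several times that level in single libraries. Patrolling monocytes held 138873, 135451 and 96725 UMIs in libraries 1, 2 and 7, against 962029 in library 8. All 4 libraries had equal weight in a fold.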

Other observations

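Cell cycle genes parted patrolling monocytes from macrophages. Of 15, 14 were tested and 10 were called lower in patrolling monocytes, beside 12.4% of all tested genes. The median log2 fold was -1.75. Those called lower included Stmn1 (64.7 against 229 CPM), Cdk1 (11.9 against 56.6 CPM) and Tyms (8.29 against 44.3 CPM). Mki67 shrank from -1.59 to -0.83 in libraries 1 to 6 alone, and Mcm5 from -1.06 to -0.73 without library 2 and -0.93 without library 8. With the CPM of single cells averaged, Mcm5 stood at -0.33. Against Ly6c2-high monocytes 9 were tested and none was called, with a median log2 fold of 1.70, while 5 were called higher in libraries 1 to 6 alone and 2 lower in libraries 7 to 12 alone, with Stmn1 in both. That median covers only genes that passed the filter, which a high level in patrolling monocytes alone could bring about. Of the 4 cells with at least 3 UMIs of Mki67 and Top2a, 2 lay in library 1, and no median without library 1 is given. Mki67 measured 129.6, 14.8, 0 and 3.12 CPM in libraries 1, 2, 7 and 8, and its log2 fold over Ly6c2-high monocytes was 2.05, but -0.62 without library 1.

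Of 12 complement and coagulation genes, 5 were lower than in Ly6c2-high monocytes and none higher, beside 4.26% and 4.72% of all genes. Cfb, complement factor B, had means of 37.6 and 167 CPM and Plau, urokinase, of 5.18 and 25.7 CPM. Against macrophages, 11 were tested, 3 were lower and 3 higher, and the higher ones were F10, coagulation factor X, at 375 against 39.2 CPM, C3, which stood at 0.87 without library 1 against 1.16, and Plaur, at 0.97 without library 7 against 1.04. Of the glycolysis and hypoxia genes 12 were tested, and Arg1 was called lower in both comparisons, beside 4.26% and 12.4% of all genes. Without library 8, 3 were lower than in Ly6c2-high monocytes (Pgk1, Bnip3 and Arg1) and 2 lower than in macrophages (Bnip3 and Arg1). Of 18 heat shock and immediate early genes, 17 were tested. Egr1 was higher than in Ly6c2-high monocytes, 1 of 17 beside the 4.72% of all genes called higher. In libraries 1 to 6 alone Hspa1b and Hsph1 were also called higher, but in libraries 7 to 12 alone both were called lower, with Hspa1a and Fosb. Against macrophages, Hspa1b was likewise higher in the former and lower in the latter. In all 4 libraries together Ier2 and Dusp1 were higher and Fosb lower than in macrophages. Ier2 fell from a log2 fold of 1.05 to 0.93 without library 7, and Dusp1 from 1.05 to 0.99 without library 1 and 0.89 without neutrophil transcripts. Of 12 survival genes, Bcl2, Pmaip1 and Bbc3 were higher and Bcl2l1 lower than in macrophages, beside 9.11% and 12.4% of all genes. Bbc3 fell from 1.68 to 0.94 without library 2 and 0.48 in libraries 7 to 12 alone. Bcl2l1 shrank from -1.20 to -0.84 without library 7, and Bcl2 fell from 1.97 to 0.99 with UMIs summed over all libraries. With at least 3 UMIs of Treml4 and Ace, where library 8 alone entered, Bcl2l1 stood at -0.37 and Bcl2 at 0.83. Of 10 tested polycomb genes, Jarid2 and Kdm6b were higher than in macrophages, beside 9.11% of all genes.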
